A study of Oryctolagus cuniculus with 14 samples.

Results

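Of the 23669 rabbit gene IDs counted in these corneas, 64 drew almost no reads in naive eyes and were read in both exposed groups. They were chosen by the median CPM (a gene's count per 1000000 counts of its library) of each group. The median was below 0.5 CPM in naive corneas and at least 2 CPM in non-impaired and in impaired corneas, and the impaired median was less than 4 times the non-impaired one. The choice thus used the levels of all 3 groups, and the differences between groups below are a description of the chosen genes, not a finding about them.

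The RNA came from whole corneas of rabbits of the New Zealand White strain. Sulfur mustard vapor had been applied to the eyes, and corneas were taken at 4 weeks from 5 clinically impaired eyes and 5 clinically non-impaired eyes, beside 4 corneas of naive eyes labelled with the same time. No genotype, sex, age, dose or further treatment was given in the sources used here, nor what scored an eye as impaired or how many animals gave the corneas of each group. The spread between libraries may therefore be in part technical.

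The cornea is a transparent tissue without blood vessels, made of a stratified epithelium, a stroma with scattered keratocytes and a single layer of endothelial cells. Sulfur mustard is a vesicant that alkylates DNA and proteins. After an acute phase, some exposed eyes go on to a late injury with inflammation, ingrowth of vessels and epithelial defects, while others appear to recover. In whole corneas, more cells that carry a transcript and more transcript per cell cannot be told apart.

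The deposited counts name genes by Ensembl ID only, and 0 of the 23669 IDs were found in the RefSeq gene table used here. What these genes encode, their sequences, lengths and positions, and the markers of corneal and other cell types were therefore not analysed here. IDs are given for the first 2 genes. The 64 genes are otherwise called gene 1 to gene 64, in falling order of the smaller of their 2 exposed medians. As CPM is not corrected for gene length, this order ranks reads, not transcripts.

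The libraries held 12002876 to 17488019 counts. A level of 0.5 CPM stood for 6.0 to 8.7 counts in a library and 2 CPM for 24 to 35 counts, so the naive levels rest on few reads. In all, 13969 gene IDs had a naive median below 0.5 CPM. Beside the 64 genes, 3 of them met both exposed thresholds but had an impaired median of 4 times the non-impaired one or more. Another 67 reached 2 CPM in impaired corneas only, and 11 in non-impaired corneas only.

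Most of the 64 genes were read at low levels after exposure. The non-impaired medians ran from 2.06 to 51.6 CPM with a middle value of 3.74 CPM, and the impaired medians from 2.06 to 54.1 CPM with a middle value of 4.94 CPM. In 49 of the 64 genes the smaller exposed median was below 5 CPM, in 23 it was below 3 CPM, and in 6 it was 10 CPM or more. The naive medians had a middle value of 0.188 CPM. A naive median of 0.498 CPM (gene 35) lay just inside the naive threshold and one of 0.505 CPM just outside. For the exposed threshold, the nearest smaller medians were 2.06 CPM inside (gene 64) and 1.9995 CPM outside. Gene 59 had the highest ratio of impaired to non-impaired medians at 3.31, and the nearest gene beyond the bound had 8.48.

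**Figure D1:**
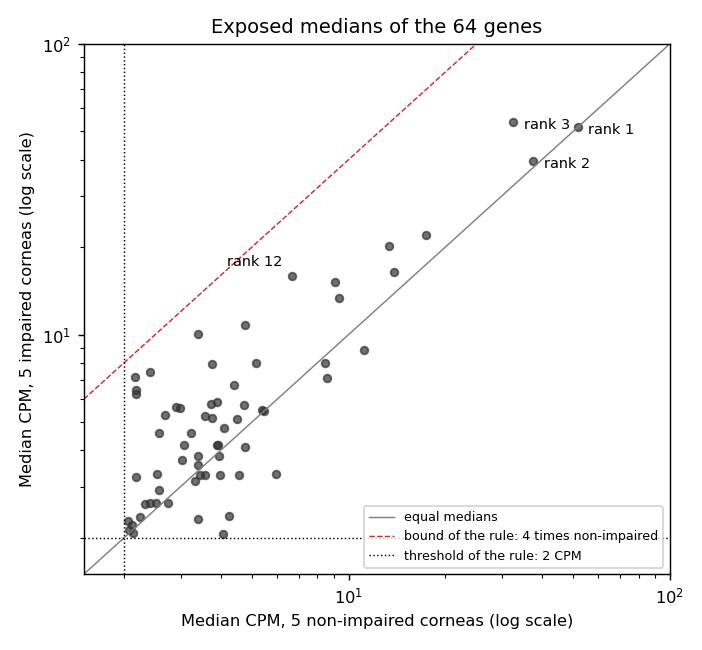
Median CPM of each of the 64 genes in 5 non-impaired corneas (horizontal) and 5 impaired corneas (vertical), both on log axes. Dotted lines mark 2 CPM, the dashed line 4 times the non-impaired median and the solid line equal medians: 47 genes lie above the solid line and 17 below it.

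Silence in naive corneas was seldom complete. Of the 64 genes, 41 had at least 1 count in every naive library, 21 lacked counts in some of the 4 libraries, and 2 (genes 11 and 39) had no count in any. Over the 4 naive libraries together a gene had 0 to 108 counts, with a median of 15. Every exposed library had counts of all 64 genes. In the 41 genes with counts in every naive library, the non-impaired median was 5.71 to 160 times the naive median (median 19.9) and the impaired median was 5.53 to 169 times (median 23.2). Among these 41 genes the naive counts numbered 5 to 35 in all, so single ratios are imprecise.

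Single libraries followed the group medians in nearly all of the genes. The lowest of the 10 exposed libraries lay above the highest naive library in 63 of the 64 genes. Taken alone, the impaired and the non-impaired group each did so in 63 genes as well. Among all 10048 genes tested, every impaired library exceeded every naive library in 12.5%, and every non-impaired library exceeded every naive library in 11.6%. Since the choice of the genes used these levels, nothing is read from the difference. The thresholds themselves were met less fully: all 4 naive libraries were below 0.5 CPM in 44 genes, and all 10 exposed libraries reached 2 CPM in 27. All 10 exposed libraries reached 1 CPM in 53 of the 64.

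The fit over all genes called 63 of the 64 genes higher in the impaired than in the naive group (adjusted p under 0.05 by the quasi-likelihood test of edgeR), where 19.8% of all tested genes were called higher. For non-impaired against naive corneas it called 61 of 64, where 12.8% of all tested genes were called. Of the 64 genes, 0 were called lower in either comparison, where edgeR called 15.8% of all tested genes lower in impaired and 9.99% in non-impaired corneas. At an unadjusted edgeR p below 0.05, 0 of the 64 were lower, against 21.4% and 17.4% of all tested genes. DESeq2 and limma voom also called 0 of the 64 lower, and their shares of all tested genes were not computed. All these counts use the same naive libraries and the same contrasts as the choice, and they support nothing beyond it. All 64 genes passed the filter on low counts. The genes not called were gene 24 in both comparisons and genes 12 and 56 in non-impaired corneas, named here after their values were seen. With medians of 5.19 for impaired and 4.48 for non-impaired corneas, the fitted log2 fold changes of the 64 genes against naive contrast with 0.01 and -0.00 over all tested genes. These medians include genes with very few naive counts, whose fitted values depend on the prior count.

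Genes were also chosen by the same rule on 13 libraries and read in the library left out. The thresholds of the rule had been set with earlier results of these data known, so this reading is not independent of the choice. With 1 exposed library left out, the same rule chose 59 to 71 genes, and between 63.8% (impaired 5) and 93.2% (impaired 1) of them reached 2 CPM in the library that had not been used. In those libraries, 0.537% to 1.27% of all 13969 genes with a naive median below 0.5 CPM reached 2 CPM. Only 13971 of the 23669 gene IDs had a count in any library, so many of these 13969 genes could not reach 2 CPM. With 1 naive library left out, 76.5% (naive 4) to 88.9% (naive 3) of the chosen genes were below 0.5 CPM in it, against 0.776% to 1.03% of the 8381 genes with both exposed medians at 2 CPM or more. The chosen genes had passed the threshold in question by the median of the other libraries of the group. The genes set beside them need not have, so a higher share was fixed in part by the choice, and nothing is read from these differences. The lowest agreement among the impaired libraries was in impaired 5 and impaired 2 (72.1%), and among the non-impaired in non-impaired 3 (70.4%). Of the 64 genes, 47 were chosen whichever library was left out.

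Together the 64 genes made up a small part of each library. Their summed level was 16.0, 14.4, 13.4 and 21.9 CPM in naive 1 to 4. It was 491, 544, 371, 372 and 367 CPM in non-impaired 1 to 5. The impaired libraries 1 to 5 had 569, 382, 633, 2365 and 365 CPM. The exposed groups overlapped, and impaired 4 stood far above all other libraries. The mean was 16.4 ± 3.8 CPM in naive (SD, n = 4), 429 ± 82.8 CPM in non-impaired (SD, n = 5) and 863 ± 848 CPM in impaired corneas (SD, n = 5). Without impaired 4 the impaired mean was 487 ± 134 CPM (SD, n = 4).

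Genes 1, 2, 3 and 12 carried most of the excess in impaired 4. They held 1628 of its 2365 CPM, which is 68.8%, and 18.5% to 44.0% of the sum in the other impaired libraries. The other 60 genes summed to 738 CPM in impaired 4 and to 204 to 463 CPM in the other impaired libraries. By the median gene, impaired 4 was not the highest: the middle value of the 64 genes was 5.82 CPM there, 6.33 CPM in impaired 1 and 6.58 CPM in impaired 3, against 3.14 CPM in impaired 2 and 2.38 CPM in impaired 5.

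**Figure D2:**
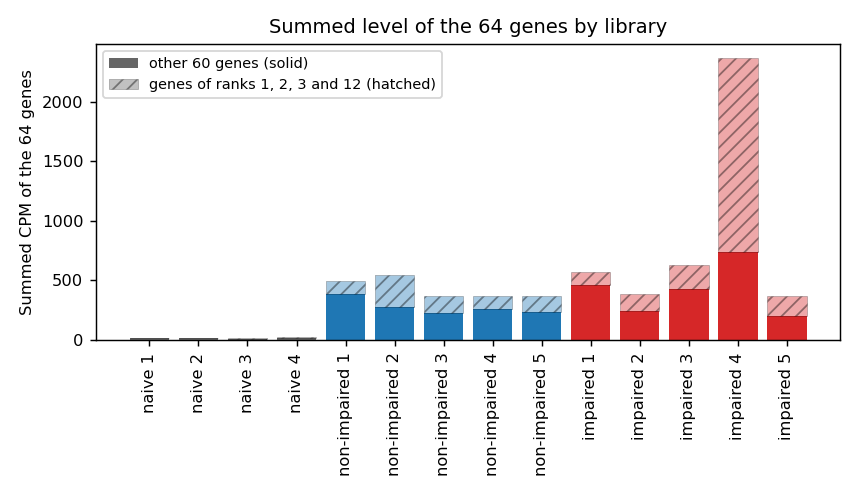
Summed CPM of the 64 genes in each of the 14 libraries, with bars starting at 0; solid parts are 60 genes and hatched parts are genes 1, 2, 3 and 12. The naive bars are 13.4 to 21.9 CPM high, and impaired 4 reaches 2365 CPM, most of it hatched.

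Gene 1, ENSOCUG00000006561, had 0.457, 0.784, 0.354 and 0.30 CPM in naive 1 to 4. Its level was 50.4, 82.0, 51.6, 52.2 and 49.1 CPM in non-impaired 1 to 5. It reached 40.6, 40.1, 55.2, 181 and 51.8 CPM in impaired 1 to 5. No naive library came near an exposed one, and the exposed groups overlapped, with non-impaired 2 and impaired 4 each the highest of its group. The means were 0.474 ± 0.217 CPM in naive (SD, n = 4), 57.1 ± 14 CPM in non-impaired (SD, n = 5) and 73.7 ± 60.3 CPM in impaired corneas (SD, n = 5), and 46.9 ± 7.7 CPM in impaired corneas without impaired 4 (SD, n = 4). The impaired mean is thus above the non-impaired mean with impaired 4 and below it without.

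Gene 2, ENSOCUG00000025803, had the lowest naive spread relative to its mean of the 62 genes with naive counts, at 0.229, 0.261, 0.212 and 0.24 CPM in naive 1 to 4, from 15 counts in all. It had 27.2, 97.0, 53.9, 31.0 and 37.6 CPM in non-impaired 1 to 5. Its impaired levels, in the same order, were 34.8, 37.7, 39.5, 249 and 44.6 CPM. As for gene 1, the same 2 libraries were highest, and the other 8 exposed libraries lay within 27.2 to 53.9 CPM. The group medians were 0.234, 37.6 and 39.5 CPM in naive, non-impaired and impaired corneas, the largest ratio to naive among the 41 genes with counts in every naive library.

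Gene 3 had 0.286 to 0.599 CPM in the naive libraries. It had 22.3, 58.5, 32.6, 23.7 and 32.5 CPM in non-impaired 1 to 5, and 25.6, 46.6, 62.1, 421 and 54.1 CPM in impaired 1 to 5. Impaired 4 was 6.78 times the next impaired library. Without it the impaired mean was 47.1 ± 15.7 CPM (SD, n = 4), against 33.9 ± 14.5 CPM in non-impaired corneas (SD, n = 5).

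Gene 12 had the largest coefficient of variation (SD relative to the mean of CPM) of the 64 genes in impaired corneas. It had 0.343, 0.131, 0.283 and 0.419 CPM in naive 1 to 4, and 6.65, 25.3, 4.41, 3.74 and 12.3 CPM in non-impaired 1 to 5. In impaired 1 to 5 it had 4.25, 15.9, 44.6, 777 and 10.3 CPM. Impaired 4 alone gave 11548 of its 12710 impaired counts, 90.9%, and stood 17.4 times above impaired 3. The mean in impaired corneas was 170 ± 339 CPM (SD, n = 5) and 18.7 ± 17.9 CPM without impaired 4 (SD, n = 4). Non-impaired 2 was again the highest non-impaired library.

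A level in impaired 4 of at least 2 times every other impaired library was found in 15 of the 64 genes (23.4%) and in 1.36% of all tested genes. Genes 1 to 6, 12 and 19 were among these 15 genes. In 9 of the 15, the highest non-impaired library was non-impaired 2, in 4 it was non-impaired 1 and in 2 it was non-impaired 4. Over all tested genes, non-impaired 2 was the highest non-impaired library in 15.6%, non-impaired 1 in 26.0% and non-impaired 4 in 24.1%. Of the 26 genes whose highest impaired library was impaired 4, 9 peaked in non-impaired 2 and 10 in non-impaired 1. No joint share with an impaired 4 peak was computed over all tested genes, and no link between these libraries is drawn. Total counts in impaired 4 (14863749) and non-impaired 2 (16542018) were within the range of the other libraries. The cause of the high levels was not tested.

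Other genes of the 64 peaked in impaired 1, impaired 3 or impaired 5. Impaired 1 was the highest impaired library in 20 genes, impaired 3 in 16, impaired 5 in 2 and impaired 2 in none of the 64. Among the 20 genes that peaked in impaired 1, 16 peaked in non-impaired 1, and among the 16 that peaked in impaired 3, 10 did. The share of all tested genes with such joint peaks was not computed, so nothing is read from these pairs. Over all tested genes, impaired 1 was the highest impaired library in 39.7% and non-impaired 1 the highest non-impaired library in 26.0%, against 31.2% and 59.4% of the 64 genes. Impaired 3 was highest in 17.8% of all tested genes, against 25% of the 64. For impaired 5 the shares were 16.1% and 3.1%, and for impaired 2 they were 11.9% and 0%. Nothing is read from these shares.

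**Figure D3:**
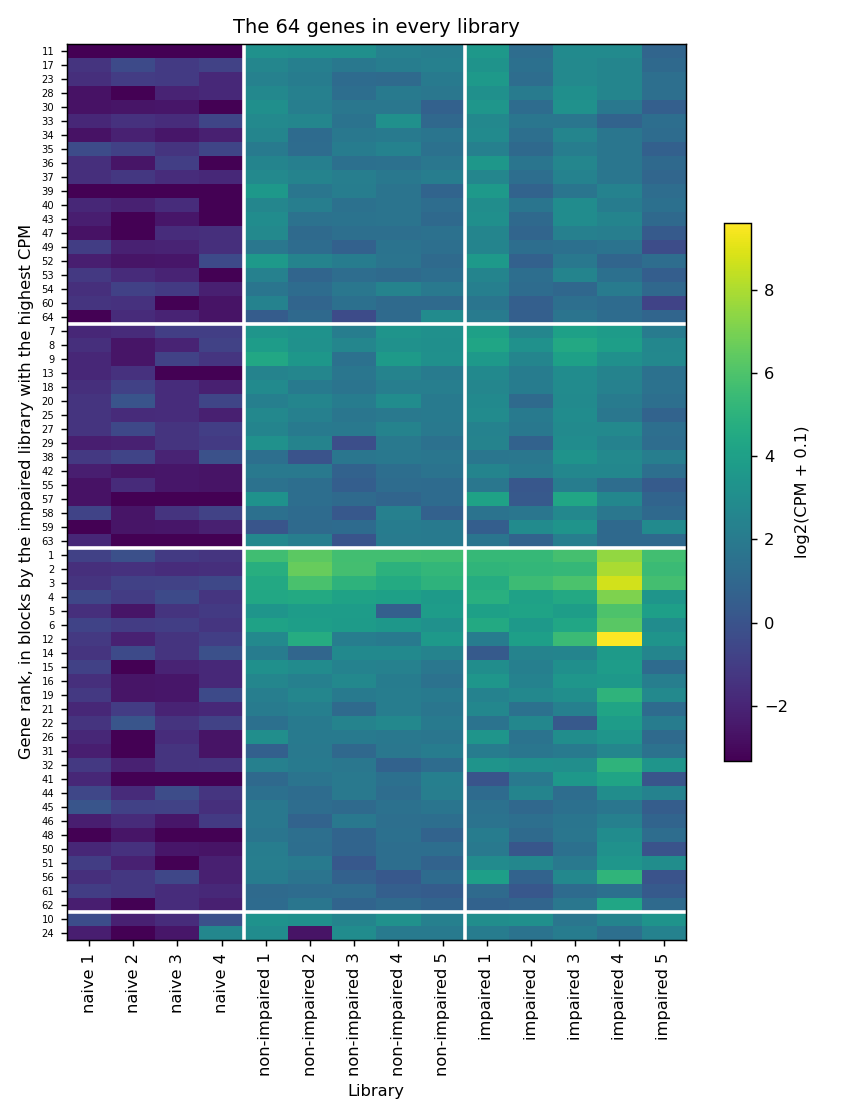
Level of each of the 64 genes (rows, by rank) in the 14 libraries (columns), as log2 of CPM plus 0.1. Rows are in blocks by the impaired library with the highest CPM, from the top impaired 1 (20 genes), impaired 3 (16), impaired 4 (26) and impaired 5 (2); naive columns are dark in nearly all rows.

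Gene 57 is an example with high levels in impaired 1 and impaired 3. It had 1 count in naive 1 and none in naive 2 to 4. In non-impaired 1 to 5 it had 9.68, 2.48, 2.08, 1.75 and 2.18 CPM, and in impaired 1 to 5 it had 17.3, 1.12, 19.7, 6.26 and 1.67 CPM. Its levels in impaired 2 and impaired 5 were thus below the lowest non-impaired library, and those in impaired 1 and impaired 3 were above the highest.

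Gene 59 had 0.951, 2.12, 2.16, 4.16 and 3.72 CPM in non-impaired 1 to 5, with the lowest value in non-impaired 1. In impaired 1 to 5 it had 1.33, 7.53, 10.3, 2.02 and 7.15 CPM, so that impaired 3 was the highest, impaired 2 and impaired 5 followed, and impaired 1 and impaired 4 were low. Its naive libraries held 4 counts in all.

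Across the 64 genes, single libraries lay to one side of their group. Impaired 2 was below the impaired median in 53 genes (82.8%, against 51.1% of all tested genes), and impaired 5 in 48 (75%, against 38.3%). Above the impaired median lay impaired 3 in 42 genes (65.6%, against 48.5%), impaired 1 in 41 (64.1%, against 57.6%) and impaired 4 in 34 (53.1%, against 28.3%). In the non-impaired group, non-impaired 1 was above the median in 45 genes (70.3%, against 45.7%), and non-impaired 5 was below it in 38 (59.4%, against 46.8%). Impaired 1, non-impaired 3 and non-impaired 4 had the fewest total counts, 12002876 to 12028496. Non-impaired 3 was below its group median in 54.7% of the 64 genes (against 38.3%) and above it in 21.9% (against 41.2%). Non-impaired 4 was below it in 42.2% (against 39.2%) and above it in 34.4% (against 42.9%). A part of total counts in these sides was not tested.

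**Figure D4:**
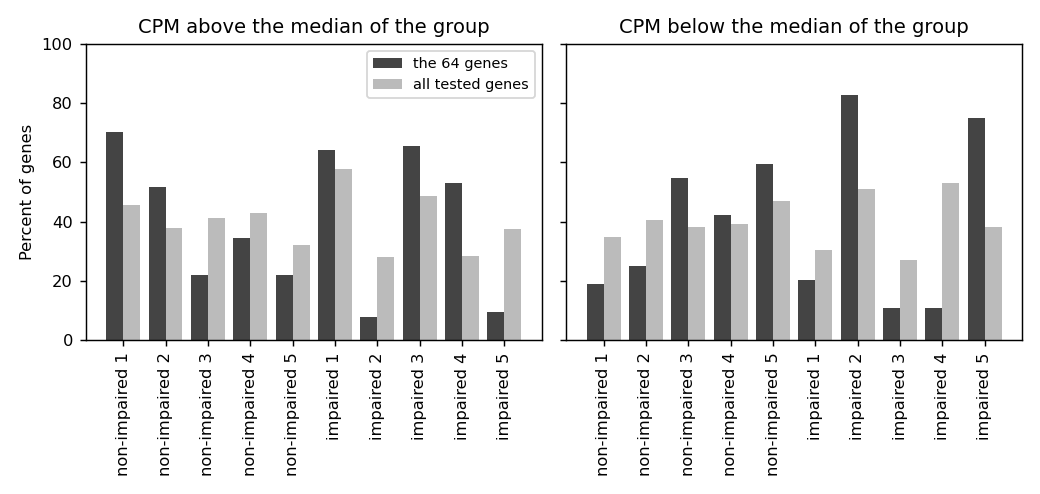
Percent of genes whose CPM in a library was above (left) or below (right) the median of its group of 5, for the 64 genes (dark) and all 10048 tested genes (light). Impaired 2 and impaired 5 are below their group in 82.8% and 75% of the 64 genes.

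The spread between libraries of a group was wider in the 64 genes than over all tested genes. The coefficient of variation had a median of 56.3% (impaired) and 35.4% (non-impaired corneas) in the 64 genes, against 20.05% and 13.6% over all tested genes. Counting error is larger at the low counts of many of these genes, and its part in the difference was not tested. For 53 of the 64 genes the impaired coefficient exceeded the non-impaired one. Over all tested genes the median coefficient was also larger on the impaired side (20.05% against 13.6%). The share of all tested genes with this direction was not computed, so nothing is read from the 53. A single library held the majority of the impaired counts in 13 genes (20.3%, against 1.76% of all tested genes), which was impaired 4 in 12 of them and impaired 1 in gene 52. In the non-impaired group the same was found in 4 genes (6.25%, against 1.44%), namely genes 39, 52, 57 and 64, chosen here after their values were seen.

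The clinical groups were compared within the 64 genes last, where the choice had capped the ratio from above and set a floor of 2 CPM in both groups. Impaired and non-impaired medians were within 1.5 times of each other in 42 genes. The impaired median was at least 1.5 times higher in 19 genes, at least 2 times higher in 8 of these, and at least 1.5 times lower in 3. Over all 64 genes the median log2 ratio of impaired to non-impaired medians was 0.18, and with means in place of medians it was 0.36. It was 0.10 without impaired 1, 0.11 without impaired 3, and 0.43 without impaired 2 or without impaired 5. The 5 highest ratios were those of genes 59, 51, 56, 32 and 57, from 3.31 down to 2.87, and the 5 lowest those of genes 63, 33, 52, 54 and 37, from 0.506 to 0.721.

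In the fit over all genes, 7 of the 64 genes were called higher on the impaired side against the non-impaired (10.9%; edgeR adjusted p below 0.05), where 18.4% of all tested genes were called higher. These were genes 3, 12, 19, 32, 42, 51 and 56. None of the 64 was called lower by edgeR, DESeq2 or limma voom. At an edgeR adjusted p below 0.05, 14.4% of all tested genes were called lower. At an unadjusted edgeR p below 0.05, 0 of the 64 were lower, against 20.04% of all tested genes. Because the choice bounded this contrast, nothing is read from these shares. Without impaired 4, 1 of the 64 genes was called higher, without non-impaired 5 also 1, and without non-impaired 4 it was 2. The shares of all tested genes called in these refits were not computed, so nothing is read from the smaller counts.

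Gene 32 was 1 of 2 genes whose lowest impaired library lay above the highest non-impaired one, a pattern found in 11.8% of all tested genes. It had 0.343, 0.131, 0.283 and 0.30 CPM in naive 1 to 4, and 4.93, 3.75, 3.41, 1.58 and 2.29 CPM in non-impaired 1 to 5. In impaired 1 to 5 it had 10.1, 8.66, 8.27, 34.2 and 10.6 CPM. The converse, every non-impaired library above every impaired one, was found in 0 of the 64 genes and 7.16% of all tested genes. The 3 groups of gene 32 did not overlap, and the impaired mean was 14.4 ± 11.2 CPM (SD, n = 5) and 9.39 ± 1.10 CPM without impaired 4 (SD, n = 4), against 3.19 ± 1.30 CPM in non-impaired corneas (SD, n = 5).

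Gene 5 was the other. It had 10.5, 14.3, 13.9, 1.41 and 14.3 CPM in non-impaired 1 to 5, with 17 counts in non-impaired 4, and 16.4, 18.2, 14.6, 63.6 and 15.4 CPM in impaired 1 to 5. Apart from impaired 4 and non-impaired 4, its 8 exposed libraries lay between 10.5 and 18.2 CPM. The naive libraries held 15 counts of it.

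Gene 10 was among the genes at like levels in both exposed groups. It had 9.68, 8.46, 5.57, 9.06 and 4.81 CPM in non-impaired 1 to 5 and 8, 8.66, 3.32, 5.65 and 9.98 CPM in impaired 1 to 5. These groups overlapped over most of their range, with means of 7.52 ± 2.18 CPM and 7.12 ± 2.64 CPM (SD, n = 5 each). Its naive libraries had 0.743, 0.131, 0.212 and 0.839 CPM, so naive 1 and naive 4 were above 0.5 CPM.

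For genes 11 and 39, without any naive count, only a lower bound on the fold can be given. It compares the pooled level of a group with a floor of 3 counts over the 63624297 naive counts, 0.0472 CPM, and covers counting error only. Gene 11 had 9.03, 8.64, 8.56, 4.99 and 4.58 CPM in non-impaired 1 to 5 and 11.7, 2.38, 7.08, 7.20 and 1.74 CPM in impaired 1 to 5, at least 152-fold and 122-fold above the floor. Gene 39 had 11.8, 3.32, 4.41, 2.99 and 1.72 CPM in non-impaired 1 to 5 and 12.7, 1.65, 3.13, 5.25 and 2.38 CPM in impaired 1 to 5, at least 106-fold and 98.7-fold above it. Both had their highest level in the first library of each exposed group, and in gene 39 non-impaired 1 gave 199 of 373 non-impaired counts.

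Gene 24 was the exception to the separation of naive and exposed libraries. It had 0.114, 0, 0.0708 and 6.29 CPM in naive 1 to 4, where naive 4 gave 105 of its 108 naive counts. In non-impaired 1 to 5 it had 7.66, 0.0605, 7.65, 3.74 and 3.90 CPM, where non-impaired 2 gave a single count. In impaired 1 to 5 it had 4.17, 2.97, 4.26, 2.56 and 5.22 CPM. Naive 4 thus lay at an exposed level and non-impaired 2 at a naive level. No other of the 64 genes reached 2 CPM or even 1 CPM in any naive library, and none was below 0.5 CPM in any other exposed library.

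**Figure D5:**
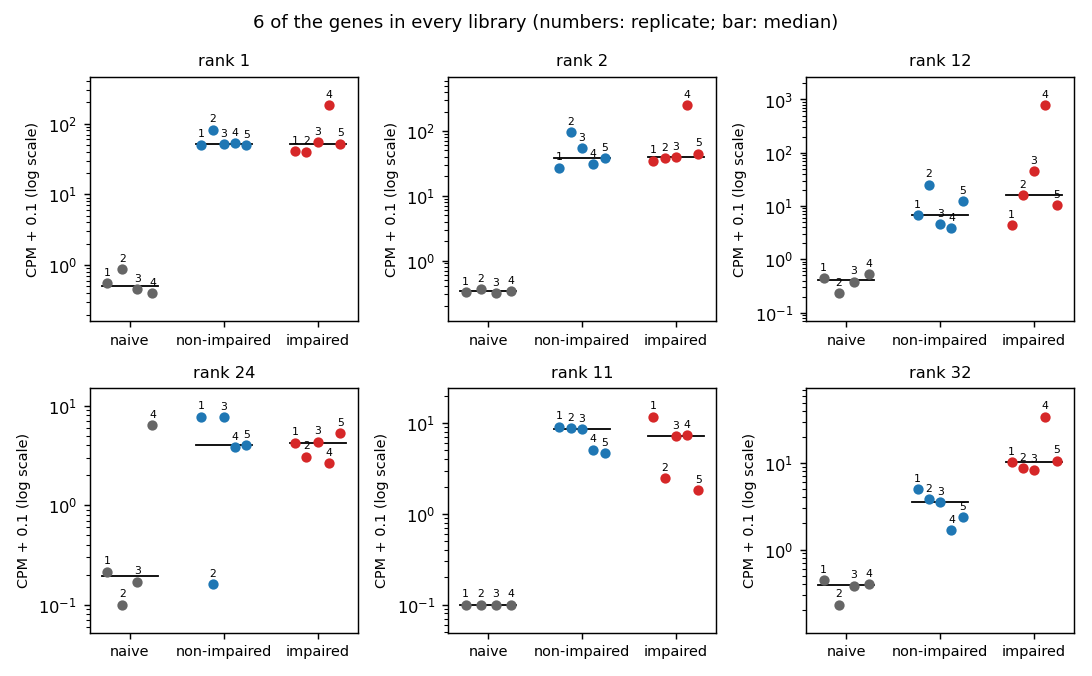
CPM plus 0.1 on a log axis for genes 1, 2, 12, 24, 11 and 32 in every library; points carry the replicate number, and bars are group medians. Impaired 4 stands above its group for genes 1, 2, 12 and 32, and gene 24 has naive 4 at 6.29 CPM and non-impaired 2 at 0.0605 CPM.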

How the data were processed

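RNA-seq was done on 14 rabbit corneas. Per the labels' protocols, TruSeq libraries were built from total RNA of the stabilised tissue. The deposited values are raw counts per Ensembl gene ID, 1 file per library, with no pooling. Tools listed in the submitters' processing notes are TopHat2 2.1.0, Cufflinks 2.0.2, bcl2fastq 2.17 and DESeq, with OryCun2.0 as the build. Not given in the sources used here are the annotation release, the counting program, its use of strand and how it took multiply matched reads, so counts of overlapping, antisense or near-identical genes are uncertain.

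CPM were computed on the full total of each file. Genes were tested with edgeR 4.0.16 in R 4.3.3 on the 10048 genes that passed its default filter, with TMM scaling, all 3 groups in 1 robust quasi-likelihood fit with 11 residual degrees of freedom, and Benjamini-Hochberg adjustment over all tested genes at 0.05. The fit was tested on simulated data. As the choice of the 64 genes used every contrast, no p-value of a single gene is given. The genes, thresholds and lists were chosen with earlier results of these data known, and the fixed marker lists could not be used without gene names. For the same reason the rule for named genes gave IDs of 2 genes, those with the highest smaller exposed median, and the other genes described were picked after their values were seen. Alternatives were other thresholds, means, scalings and filters, DESeq2 1.42.0, limma 3.58.1 with voom, 2-group fits, leaving out each library, and, added after the data were seen, leaving out impaired 1 and naive 4, with or without impaired 4, and reading the library left out.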

Additional observations from a re-analysis of the deposited data

Results flagged for a closer look

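Several values stood apart from their own group of 4 or 5 libraries. The gap required is one that chance gives in about 1 of 20 groups of normally distributed values. This rate does not hold for very low counts, and whether it holds for CPM was not tested. No chance rate is therefore claimed for the values below. For the 64 genes together, the sum of 2365 CPM in impaired 4 did so, as did the median gene of 5.64 CPM in non-impaired 1. Single genes are listed here only if their exposed libraries are given one by one above, so the list is not complete. Among them, impaired 4 stood apart for gene 1 (181 CPM), gene 2 (249 CPM), gene 3 (421 CPM), gene 5 (63.6 CPM), gene 12 (777 CPM) and gene 32 (34.2 CPM). Non-impaired 2 stood apart for gene 1 (82.0 CPM) and gene 3 (58.5 CPM), and non-impaired 1 for gene 39 (11.8 CPM) and gene 57 (9.68 CPM).

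Naive 4 stood apart for gene 24 (6.29 CPM), which made it the only naive library with 1 of the 64 genes at 2 CPM or more. Non-impaired 2 was likewise the only non-impaired library with 1 of the 64 genes below 0.5 CPM, again gene 24. Gene 57 had 0.0572 CPM in naive 1, a single count, which always stands apart when the other libraries of the group have none. Over all 64 genes, a library stood apart in this way in 12 genes of the impaired group, 11 of them for impaired 4, in 10 of the non-impaired group, 7 of them for non-impaired 1, and in 8 of the naive group. The share over all tested genes was not computed, so nothing is read from these counts.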

How the results depend on the processing

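The number of genes chosen followed the thresholds: 41 with a naive threshold of 0.25 CPM and 110 with 1 CPM, 124 with an exposed threshold of 1 CPM and 21 with 4 CPM, and 17 when every library had to pass its threshold. Means in place of medians chose 77 genes, 55 of them among the 64, and leaving out each library gave 59 to 71. Without impaired 1 and naive 4 the rule chose 64 genes, 57 of them the same, and without impaired 4 as well 58. With a stricter filter (5 CPM or more in 4 or more libraries), which kept 32 of the 64 in the test, 31 were called higher in impaired and 30 in non-impaired than in naive corneas; leaving out each library gave 63 to 64 and 61 to 63.

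The 7 genes called higher on the impaired side against the non-impaired became 3 without a filter on low counts, 2 with limma voom, 1 at an adjusted p below 0.01, 2 with only these groups in the fit, and 2 without impaired 1, impaired 4 and naive 4. Leaving out each library gave 1 to 10, with 4 without naive 1 or naive 3 and 3 without non-impaired 3; the cause was not tested. As a share of the 64 genes, higher minus lower, this is 10.9% and 1.56% to 15.6%. The share of all tested genes called was not computed for any alternative, against naive corneas or between the exposed groups. Nothing is therefore read from the changes in these counts. The share of all counts held by the 64 genes was 0.0429% in non-impaired corneas and 0.0209% without genes 1 to 10; in impaired corneas it was 0.0863%, and 0.0487% without impaired 4. No paired analysis was possible because the labels number no replicates, and the numbers used here only name the libraries in their deposited order. Depth limits the naive levels, as a gene's naive counts had a median of 15 over 4 libraries.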
